A study of Mus musculus with 8 samples.

Results

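The genes described here are 9 components of the NF-kB pathway, namely subunits of the transcription factor (Nfkb1, Nfkb2, Rela, Relb), feedback inhibitors (Nfkbia, Tnfaip3), ubiquitin ligases that are also target genes (Birc2, Birc3) and the target gene Ptgs2. Every probe set annotated with exactly 1 of these symbols was taken, whatever its signal. The genes themselves were chosen with earlier results of these arrays known, so their counts are no independent evidence of a direction. A probe set is a group of array probes that reads 1 transcript or a few related ones. Of the 22690 probe sets on the array, 14 met the rule, and they represented 8 of the 9 genes. Nfkb1 matched no probe set and was not analysed here.

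The RNA came from TTE3, a line of mouse Sertoli cells, the somatic cells of the testis that nurse germ cells. The line comes from mice with a transgene for the large T antigen of simian virus 40 in a temperature-sensitive form, which all groups share; the promoter that drives it is not given in the sources used here. The groups were cells given bisphenol A (BPA), a building block of polycarbonate plastics, at 0.2 mM for 0, 3, 6 or 12 h, with 2 Affymetrix arrays at each of the 4 times and 8 in all. The question of the study was the response of Sertoli cell genes to BPA. No array of cells kept for 3, 6 or 12 h without BPA was analysed here, so BPA and time in culture cannot be told apart. Whether the arrays of a pair represent separate cultures is not stated in the labels, so the p-values measure a spread between samples that may be technical only.

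NF-kB is a family of dimers built from proteins that share the Rel homology domain, which binds DNA and holds the partners together. In resting cells the dimers sit in the cytoplasm, bound by inhibitors of the IkB family, of which IkB-alpha, the product of Nfkbia, is the best known. Signals from cytokine receptors or from cell stress activate the IkB kinase complex, the inhibitor is phosphorylated and degraded, and the dimers enter the nucleus and bind kappaB sites in target genes. Nfkbia and Tnfaip3 are themselves such targets and shut the pathway down again, which makes them common readouts of its activity. In a slower branch, the kinase NIK (Map3k14) drives the processing of the Nfkb2 precursor, which releases dimers with RelB; the products of Birc2 and Birc3 hold NIK low by ubiquitination. In rat Sertoli cells tumour necrosis factor is known to activate NF-kB.

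The start-site regions of the genes show which of them carry letters of a kappaB site close to the start of transcription. RefSeq (build GRCm38.p6) gave a window from 250 bases before to 50 bases after a start for 7 of the 9 genes, 11 windows in all; Nfkb1 and Relb were not matched. Each window was searched on both strands for the kappaB consensus and for its stricter form, GGGA and TTCC with any 2 bases between them, whose matches are a subset of the consensus matches. The consensus matched in 3 genes (Nfkb2, Nfkbia and Tnfaip3; 5 windows), and 8.46% of all 32851 windows of 300 bases hold it. The stricter form matched in 2 genes (Nfkb2 and Nfkbia; 3 windows), against 1.47% of all windows. No match was found in the windows of Rela, Birc2, Birc3 and Ptgs2 or in the second window of Tnfaip3; that says only that these letters are not in these stretches. The matched windows of Nfkbia and Tnfaip3 and the first and second windows of Nfkb2 are printed because both inhibitor genes are feedback targets and Nfkb2 held the most matches, and that of Ptgs2 because this gene had the largest change. Each runs 5′ to 3′ on the gene's strand, from 250 bases before to 30 bases after the start, with consensus matches in capitals.
Nfkbia, chr12:55492618-55492897, minus strand: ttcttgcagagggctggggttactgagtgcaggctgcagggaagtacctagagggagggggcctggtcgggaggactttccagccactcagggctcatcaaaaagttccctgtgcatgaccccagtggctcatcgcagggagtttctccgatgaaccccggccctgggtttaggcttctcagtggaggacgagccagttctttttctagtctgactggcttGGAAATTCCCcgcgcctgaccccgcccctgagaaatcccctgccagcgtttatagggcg
Tnfaip3, first window, chr10:19015381-19015660, minus strand: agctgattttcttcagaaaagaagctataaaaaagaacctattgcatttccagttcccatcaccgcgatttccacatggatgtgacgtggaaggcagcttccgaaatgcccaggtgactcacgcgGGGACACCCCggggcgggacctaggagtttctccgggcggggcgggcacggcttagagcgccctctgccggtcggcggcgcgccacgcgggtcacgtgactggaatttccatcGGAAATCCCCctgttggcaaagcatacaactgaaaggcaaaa
Nfkb2, first window, chr19:46304487-46304766, plus strand: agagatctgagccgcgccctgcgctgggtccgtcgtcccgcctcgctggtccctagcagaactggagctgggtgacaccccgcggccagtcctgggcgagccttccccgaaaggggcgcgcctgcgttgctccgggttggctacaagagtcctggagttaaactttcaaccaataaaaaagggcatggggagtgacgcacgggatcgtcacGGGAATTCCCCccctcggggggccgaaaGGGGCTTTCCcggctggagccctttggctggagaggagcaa
Nfkb2, second window, chr19:46305445-46305724, plus strand: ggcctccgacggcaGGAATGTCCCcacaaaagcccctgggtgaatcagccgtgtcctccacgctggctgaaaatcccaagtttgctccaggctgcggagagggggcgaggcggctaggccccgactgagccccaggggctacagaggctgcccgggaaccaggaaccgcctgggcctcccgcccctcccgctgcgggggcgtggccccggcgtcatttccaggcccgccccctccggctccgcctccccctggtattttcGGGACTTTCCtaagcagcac
Ptgs2, chr1:150099781-150100060, plus strand: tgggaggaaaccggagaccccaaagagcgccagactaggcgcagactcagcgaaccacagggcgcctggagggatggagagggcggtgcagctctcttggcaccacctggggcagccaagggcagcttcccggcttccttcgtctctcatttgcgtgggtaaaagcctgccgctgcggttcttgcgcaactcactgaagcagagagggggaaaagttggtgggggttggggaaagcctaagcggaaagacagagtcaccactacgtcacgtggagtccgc

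The match of Nfkbia, GGAAATTCCC, begins 29 bases before the start and is the stricter form read on the opposite strand. The matches of Tnfaip3 are GGGACACCCC, 125 bases before the start, and GGAAATCCCC, 12 bases before it. In the first window of Nfkb2, GGGAATTCCC and GGAATTCCCC overlap, 39 and 38 bases before the start, and GGGGCTTTCC lies 11 bases before it. The second window of Nfkb2 holds GGAATGTCCC, 236 bases before the start, and GGGACTTTCC, 10 bases after it, both of the stricter form. The third window of Nfkb2, not printed, overlaps the second and shares its GGGACTTTCC. The arrays measured RNA and not binding, so these matches are descriptions of sequence.

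The signals are the authors' values per probe set on a linear scale, and levels of different probe sets cannot be set against each other. Changes are given on the log2(signal + 7.9) scale with their standard error (SE) from a limma model over all 8 arrays; a value of 1 is a doubling of signal plus offset. A gene was called when its p-value was under 0.05 after Benjamini-Hochberg adjustment over the 8675 genes tested. Replicate arrays correlated with r between 0.974 and 0.984, and the median signal of an array lay between 150.85 and 170.05. All 8 genes with a probe set passed the filter on low signals, as did 13 of the 14 probe sets, the exception being 1 of those for Birc3. In these bulk samples, more cells of a type and more RNA per cell cannot be told apart.

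At 3 h, 5 of the 8 genes were called higher (Relb, Nfkbia, Tnfaip3, Birc2 and Ptgs2), where 8.55% of all genes were; 3.53% of all genes were called lower. With the arrays scaled to the same median, 4 of the 8 were called higher at 3 h, and the split over all genes turned to 5.35% higher and 7.41% lower. At 6 h, 6 were called higher, Birc3 being the addition, against 16.8% of all genes, and 9.73% of all genes were called lower (12.2% and 13.7% with median scaling, which again called 6 of the 8). At 12 h, all 8 were called higher, against 20.9% of all genes, and 17.5% of all genes were called lower. At an unadjusted p under 0.05, for which no share of all genes is given, 0 of the 8 were lower at any of these times. The median log2 change of the 8 genes was 0.65, 1.12 and 1.15 at 3, 6 and 12 h, beside 0.06, 0.07 and 0.06 over all genes tested. Both later arrays lay above both 0 h arrays for 7 genes at 3 h (34.7% of all genes), 8 at 6 h (36.6%) and 8 at 12 h (38.6%). The 3 comparisons share the 0 h arrays. Over the 4 times together, limma's moderated F test called 7 of the 8 genes, against 35.8% of all genes; the exception was Nfkb2 (adjusted p = 0.0756).

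**Figure D1:**
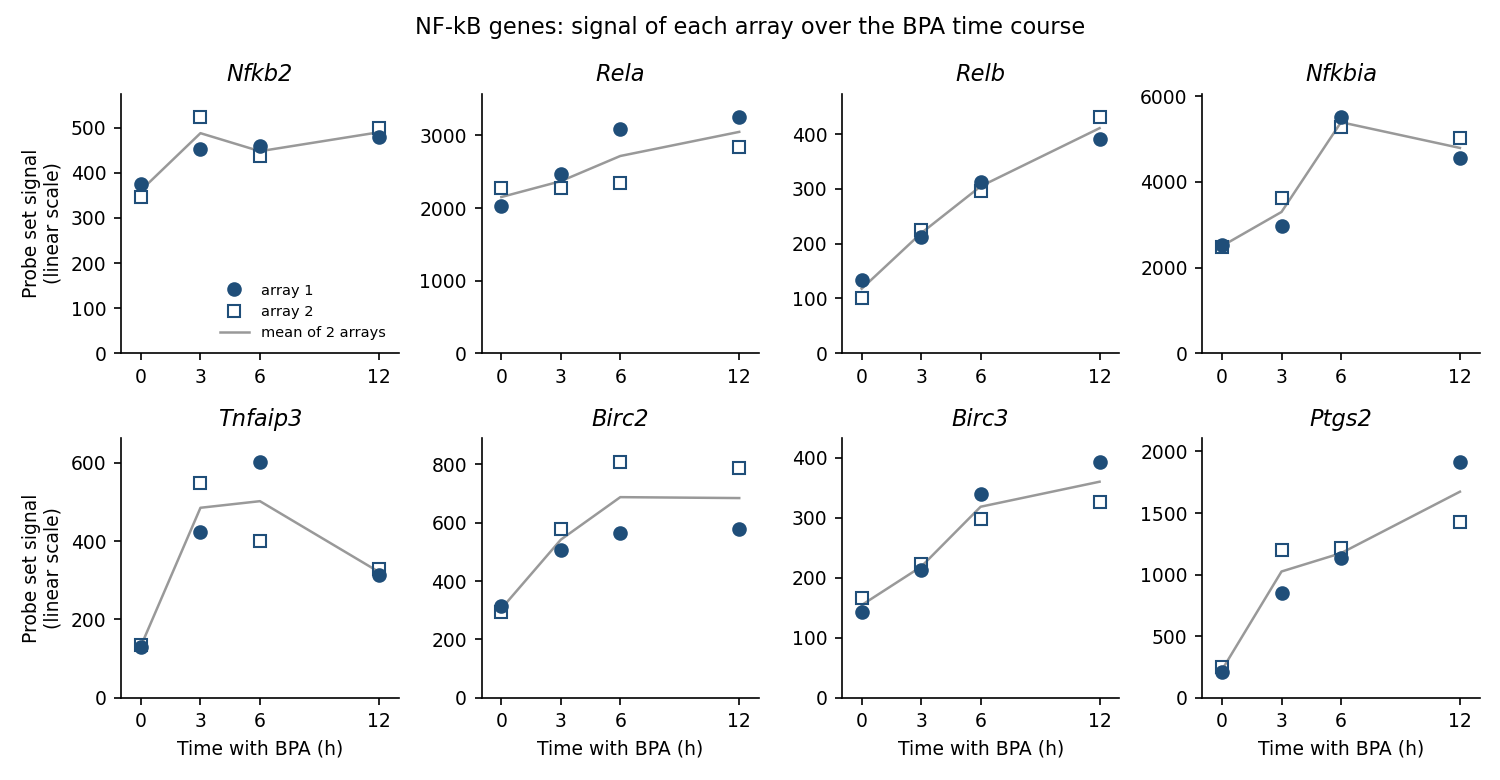
Signal of each gene's main probe set (linear axis starting at 0) against hours of BPA, 1 panel a gene. Points are single arrays and lines join the means of 2 arrays; Ptgs2, Relb and Tnfaip3 stand clear of their 0 h arrays at every later time, while the Rela arrays at 3 h overlap those at 0 h.

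**Figure D2:**
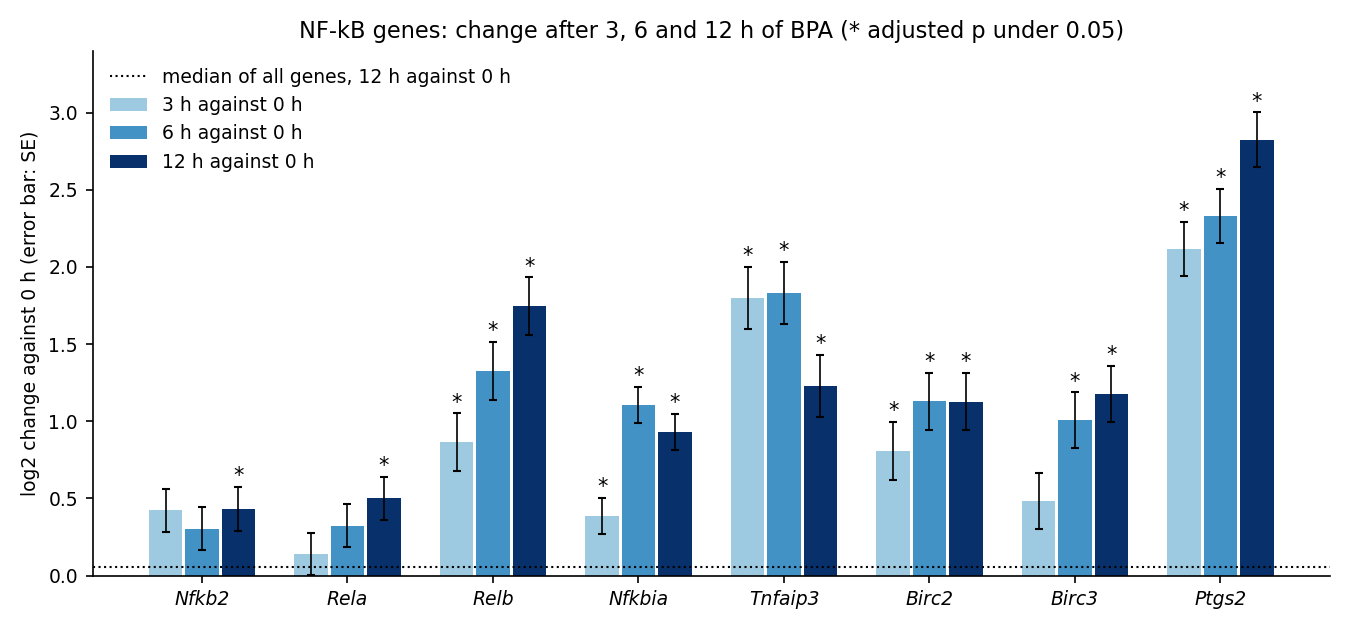
Log2 change against 0 h of the 8 genes at 3, 6 and 12 h, with bars for the standard error of the limma model. Ptgs2 has the largest changes, 2.12, 2.33 and 2.82, and Nfkb2 and Rela the smallest at 12 h, 0.43 and 0.50.

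Among the subunits, Relb rose at every time, and Rela and Nfkb2 were called at 12 h alone with changes of 0.50 and 0.43. Relb, the partner of the slower branch, had signals of 134 and 101.6 at 0 h, 212.5 and 225.9 at 3 h, 313.1 and 296.4 at 6 h, and 390.8 and 431.1 at 12 h. No 2 times overlapped, and each later pair of arrays was above the one before. The change against 0 h was 0.86 ± 0.19 at 3 h (limma, adjusted p = 0.00887), 1.33 ± 0.19 at 6 h (adjusted p = 0.000216) and 1.75 ± 0.19 at 12 h (adjusted p = 1.15e-05). Relb was also higher at 12 h than at 3 h, by 0.88 ± 0.19 (limma, adjusted p = 0.00489), a comparison in which 9.52% of all genes were called higher (16.3% with median scaling). The 3 h call was lost without 0 h array 2 (0.68, adjusted p = 0.0952) or without 3 h array 2 (0.82, adjusted p = 0.0637); the later calls were kept under all 18 alternatives tried.

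Rela, the subunit with the strong activation domain and the partner of the Nfkb1 product in the commonest dimer, had signals of 2022.2 and 2281.5 at 0 h, 2467.8 and 2272 at 3 h, 3092.7 and 2341.3 at 6 h, and 3252.5 and 2845.8 at 12 h. The 3 h arrays overlapped those of 0 h, and the 6 h arrays stood far apart from each other. The change was 0.14 ± 0.14 at 3 h (limma, adjusted p = 0.579), 0.32 ± 0.14 at 6 h (adjusted p = 0.105) and 0.50 ± 0.14 at 12 h (adjusted p = 0.0113), where alone it passed. The 95% interval of the 3 h change ran from -0.16 to 0.44. The 12 h call was lost without 0 h array 1 (0.41, adjusted p = 0.107) and without 12 h array 1 (0.40, adjusted p = 0.0923), and a 6 h call was gained without 6 h array 2 (0.52, adjusted p = 0.0129). At 12 h against 3 h its change was 0.36 ± 0.14 (limma, adjusted p = 0.0803), which was called without either 6 h array (adjusted p = 0.0297 and 0.029), with only those times in the fit (0.0394) and with the replicate block (0.0446).

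Nfkb2, which encodes the precursor that restrains RelB until it is processed, was read by the probe sets 1425902_a_at and 1429128_x_at. The first gave 375.1 and 347.5 at 0 h, 452.4 and 523.6 at 3 h, 459.7 and 436.3 at 6 h, and 479.5 and 500.5 at 12 h. All 6 later arrays lay above both 0 h arrays, and the 3 h arrays overlapped those of 6 and 12 h. The change was 0.42 ± 0.14 at 3 h (limma, adjusted p = 0.071), 0.30 ± 0.14 at 6 h (adjusted p = 0.137) and 0.43 ± 0.14 at 12 h (adjusted p = 0.0275). The second probe set, of a type that can bind other transcripts, ranged from 91.8 to 154.7 with no separation of the times, and its changes were -0.19, -0.24 and -0.02. The log2 signals of the pair had r = -0.12 over the 8 arrays, so the probe sets of this gene disagreed. The 12 h call was lost when any 1 of the 0 h or 12 h arrays was left out (adjusted p = 0.0679 to 0.152) and when both probe sets were averaged (0.21, adjusted p = 0.403).

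Both feedback inhibitors rose at all 3 times, with different courses. Nfkbia, the gene of IkB-alpha, gave 2524.2 and 2482.1 at 0 h, 2960.2 and 3634.6 at 3 h, 5510.6 and 5272.7 at 6 h, and 4566.1 and 5016.3 at 12 h on its brightest probe set, 1420088_at. No times overlapped, and 6 h was the highest. The change was 0.39 ± 0.12 at 3 h (limma, adjusted p = 0.0462), 1.10 ± 0.12 at 6 h (adjusted p = 2.04e-05) and 0.93 ± 0.12 at 12 h (adjusted p = 4.34e-05). Nfkbia was the 1 gene of the 8 called between 6 h and 3 h, with a change of 0.72 ± 0.12 (limma, adjusted p = 0.01), in a comparison where 0.565% of all genes were called higher. At 12 h against 3 h its change was 0.54 ± 0.12 (limma, adjusted p = 0.00543), a step that not every probe set of the gene passed. At 12 h against 6 h the change was -0.17 ± 0.12 and was not called (limma, adjusted p = 0.446).

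The 3 h call of Nfkbia was lost in 8 of the 18 alternatives, more than any other call of the 8 genes against 0 h. Under median scaling of the arrays the change was 0.26 (adjusted p = 0.173). Without 0 h array 1, 0 h array 2 or 3 h array 2 it was 0.40, 0.38 and 0.24 (adjusted p = 0.183, 0.212 and 0.357), and without either 12 h array the adjusted p was 0.0512. With no filter it was 0.0789, and without the intensity trend of the variance model 0.145. The call between 6 h and 3 h was lost without the intensity trend (adjusted p = 0.128) and without 3 h array 1 (0.57, adjusted p = 0.134), and without that array the one between 12 h and 3 h was lost as well (0.40, adjusted p = 0.0825).

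The other probe sets of Nfkbia, 1448306_at, 1449731_s_at and 1420089_at, also had their highest mean at 6 h, though 1420089_at was not called. The 6 h and 12 h arrays of 1448306_at overlapped, and no probe set of the gene was called at 12 h against 6 h. On 1448306_at the signals were 711.1 and 796.8 at 0 h, 999.6 and 1002 at 3 h, 2365.3 and 1808.1 at 6 h, and 1794.1 and 1952.5 at 12 h, and on 1449731_s_at the means were 490.6 at 0 h, 799.4 at 3 h, 1358.35 at 6 h and 1040.55 at 12 h. In a fit of all 15838 probe sets that passed the filter, 1448306_at changed by 0.41 ± 0.14 at 3 h (limma, adjusted p = 0.0963), 1.45 ± 0.14 at 6 h (adjusted p = 2.48e-05) and 1.31 ± 0.14 at 12 h (adjusted p = 2.89e-05). In the same fit 1449731_s_at changed by 0.69, 1.45 and 1.07 and was called at all 3 times. The brightest, 1420088_at, was called at 6 and 12 h there but not at 3 h (0.39, limma, adjusted p = 0.0676). The dimmest, 1420089_at, stayed between 129.4 and 179.8, with changes of 0.05, 0.31 and 0.23, and was called at none (adjusted p = 0.34 to 0.926). Between 6 h and 3 h, 1448306_at and 1449731_s_at were called (adjusted p = 0.00474 and 0.0151) and 1420089_at was not (0.673). In the step at 12 h against 3 h, 1448306_at was called (0.90, adjusted p = 0.00122), while 1449731_s_at (0.37, adjusted p = 0.0624) and 1420089_at (0.18, adjusted p = 0.622) were not. The 4 probe sets correlated with r between 0.80 and 0.97 over the 8 arrays.

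Tnfaip3 encodes A20, a ubiquitin-editing enzyme that removes the signal upstream of the IkB kinase complex. Its signals were 129.6 and 135.9 at 0 h, 422.1 and 548.1 at 3 h, 602.7 and 401.2 at 6 h, and 313.4 and 329.4 at 12 h. The 3 h and 6 h arrays overlapped each other, and both 12 h arrays lay below them and above 0 h. The change was 1.80 ± 0.20 at 3 h (limma, adjusted p = 5.83e-05), 1.83 ± 0.20 at 6 h (adjusted p = 2.75e-05) and 1.23 ± 0.20 at 12 h (adjusted p = 0.000351). These calls were kept under all 18 alternatives. The step back was not called: at 12 h against 6 h it was -0.60 ± 0.20 (limma, adjusted p = 0.11), in a comparison where 3.85% of all genes were called lower (2.31% with median scaling), and at 12 h against 3 h it was -0.57 ± 0.20 (adjusted p = 0.0597). Without 6 h array 2 the step from 6 h passed (-0.89, adjusted p = 0.0314), and the 12 h against 3 h difference passed without either 6 h array (adjusted p = 0.0313 and 0.0283), with only those times in the fit (0.0317) and with the replicate block (0.0493).

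**Figure D3:**
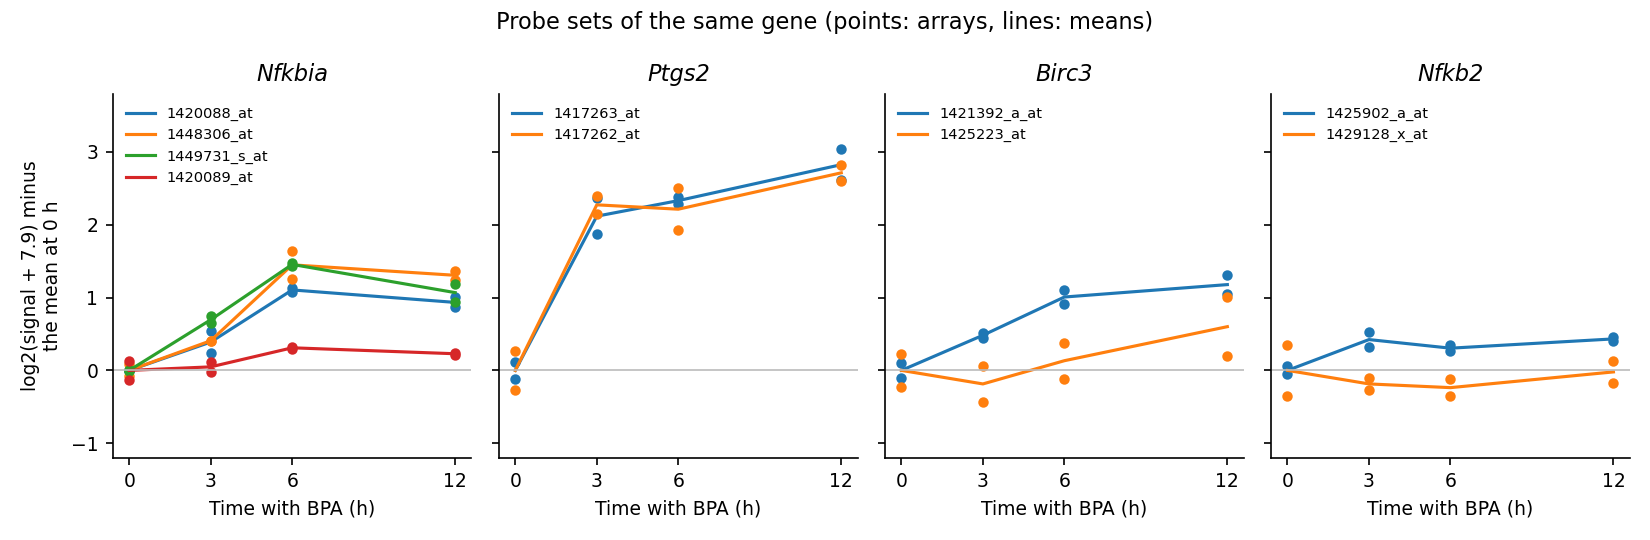
Every array for the 4 genes read by several probe sets as log2(signal + 7.9) minus the mean at 0 h, against hours of BPA; points are arrays and lines join the means of 2 arrays. The Ptgs2 pair runs together, 1420089_at of Nfkbia stays below the other 3, and 1429128_x_at of Nfkb2 and the dim 1425223_at of Birc3 depart from their partners.

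The inhibitor-of-apoptosis genes Birc2 and Birc3, neighbours whose products cIAP1 and cIAP2 ubiquitinate the kinases RIPK1 and NIK, were both higher at 6 and 12 h. Birc2 had signals of 315.1 and 295.5 at 0 h, 506.3 and 576.9 at 3 h, 565.8 and 808.6 at 6 h, and 579.4 and 788.7 at 12 h. Every later array was above both 0 h arrays, and the 6 h and 12 h arrays covered the same range. The change was 0.81 ± 0.19 at 3 h (limma, adjusted p = 0.0131), 1.13 ± 0.19 at 6 h (adjusted p = 0.000704) and 1.13 ± 0.19 at 12 h (adjusted p = 0.000382). The 3 h call was lost without 0 h array 1 (0.85, adjusted p = 0.0673), 0 h array 2 (0.76, adjusted p = 0.0991) or 3 h array 2 (0.72, adjusted p = 0.097).

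Birc3 gave 142.6 and 166.6 at 0 h, 213.3 and 223.7 at 3 h, 339.6 and 297.3 at 6 h, and 393.5 and 326.8 at 12 h on probe set 1421392_a_at. The later arrays lay above those of 0 h at each time, and the 6 h and 12 h arrays overlapped. The change was 0.48 ± 0.18 at 3 h (limma, adjusted p = 0.108), 1.01 ± 0.18 at 6 h (adjusted p = 0.00126) and 1.18 ± 0.18 at 12 h (adjusted p = 0.000225). The change at 12 h against 3 h was 0.70 ± 0.18 (limma, adjusted p = 0.0157). Without 3 h array 1, 3 h array 2 or 12 h array 1 that step was 0.66, 0.73 and 0.56 and was not called (adjusted p = 0.0837, 0.0591 and 0.123), nor was it with both probe sets averaged (0.74, adjusted p = 0.163). Its other probe set, 1425223_at, stayed between 4.7 and 26.1, did not pass the filter and was not tested; with both averaged, the changes were 0.57 at 6 h (adjusted p = 0.269) and 0.89 at 12 h (adjusted p = 0.0681).

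Ptgs2, which encodes cyclooxygenase-2, the inducible enzyme that starts prostaglandin synthesis, had the largest change of the 8 genes at every time. Its probe set 1417263_at gave 209.3 and 246.3 at 0 h, 852.6 and 1198.4 at 3 h, 1135.9 and 1212.3 at 6 h, and 1916.7 and 1429.7 at 12 h. No later array came near those of 0 h, the 3 h and 6 h arrays overlapped, and both 12 h arrays were the highest. The change was 2.12 ± 0.18 at 3 h (limma, adjusted p = 3.65e-06), 2.33 ± 0.18 at 6 h (adjusted p = 8.4e-07) and 2.82 ± 0.18 at 12 h (adjusted p = 1.04e-07), and the ratio of mean signals at 12 h and 0 h was 7.35. These calls were kept under all 18 alternatives.

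The second Ptgs2 probe set, 1417262_at, gave 114.8 and 169.8 at 0 h, 646.5 and 769.4 at 3 h, 551.3 and 829.3 at 6 h, and 1036.5 and 887.5 at 12 h. Its changes were 2.27, 2.21 and 2.71, each called in the fit of all probe sets (limma, adjusted p = 5.28e-05, 3.06e-05 and 4e-06), and r between both Ptgs2 probe sets was 0.98. The step at 12 h against 3 h on 1417263_at was 0.71 ± 0.18 (limma, adjusted p = 0.0124 in the fit of genes and 0.0202 in that of all probe sets). On 1417262_at the step was 0.44 ± 0.22 and was not called in the fit of all probe sets (limma, adjusted p = 0.195). On 1417263_at it was lost without 3 h array 1 (0.46, adjusted p = 0.138) and without 12 h array 1 (0.50, adjusted p = 0.128), and also without the intensity trend (adjusted p = 0.0691).

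Counted by probe sets, 6 of the 13 tested were called higher at 3 h, 9 at 6 h and 11 at 12 h. Of all probe sets tested, 5.91%, 13% and 17% were called higher. None of the 13 was called lower. Leaving out 1 array moved the 3 h count to between 3 and 7; it was 3 without 0 h array 2 and 3 without 3 h array 1. The gene count of 5 at 3 h was 3 without 0 h array 1, 2 without 0 h array 2 and 2 without 3 h array 2. Between the later times few of the 8 genes were called. At 6 h against 3 h, 1 was higher (Nfkbia), where 0.565% of all genes were. At 12 h against 6 h limma called 0 of the 8. Of all genes, 0.922% were called higher and 3.85% lower there (2.12% and 2.31% with median scaling). At an unadjusted p under 0.05, 2 of the 8 were higher and 1 lower. No share of all genes is given for that looser threshold. At 12 h against 3 h, a comparison added after the data were seen, 4 were higher (Relb, Nfkbia, Birc3 and Ptgs2). Of all genes, 9.52% were called higher there (16.3% with median scaling, which called 5 of the 8). The count of 4 fell when 3 h array 1 or 12 h array 1 was left out.

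The courses of the 8 genes over the arrays were alike without being the same. Pearson's r between pairs of them over the 8 arrays ran from 0.49 (Rela and Tnfaip3) to 0.93 (Relb and Birc3); the arrays are shared by all genes, so these are descriptions. By mean signal, Tnfaip3 was highest at 3 and 6 h and Nfkbia at 6 h, while Relb, Birc3 and Ptgs2 were highest at 12 h. None of the 8 genes was called at 12 h against 6 h. Of all genes tested, those whose log2 signal followed a given gene most closely over the 8 arrays were Tprkb for Relb (r = 0.996), Ankhd1 for Rela (r = 0.984) and Trmt1 for Nfkb2 (r = 0.975). They were Slc1a4 for Nfkbia (r = 0.995), Ier2, an immediate early gene, for Tnfaip3 (r = 0.983) and Zfp24 for Birc2 (r = 0.990). They were Stambpl1 for Birc3 (r = 0.997) and Pvt1 for Ptgs2 (r = 0.992). Ier2 changed by 3.08, 2.87 and 1.75 at 3, 6 and 12 h, and Pvt1 by 2.17, 2.44 and 2.96.

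Around these genes, 86 others of the pathway were listed, 75 of them on the array and 53 past the filter. Of the 53, 11 were called higher and 0 lower at 3 h, 19 higher and 1 lower at 6 h, and 20 higher and 4 lower at 12 h, beside the shares of all genes given above. At 3 h and an unadjusted p under 0.05, for which no share of all genes is given, 1 of the 53 was lower. Their median log2 change was 0.28, 0.35 and 0.26. Some of these genes, such as Ccl7 and Cxcl10, were listed with their result in these arrays known, so the counts are not independent evidence of a direction.

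The remaining subunit, c-Rel (Rel), known mainly from lymphocytes, was listed with the inhibitors and regulators and had the largest change among them. Its signals were 77.8 and 68.9 at 0 h, 415.5 and 379.1 at 3 h, 638 and 650.5 at 6 h, and 604.5 and 588.8 at 12 h. All later arrays lay far above 0 h, and the replicates of each time were close. The change was 2.32 ± 0.15 at 3 h (limma, adjusted p = 3.83e-07), 3.01 ± 0.15 at 6 h (adjusted p = 2.42e-08) and 2.90 ± 0.15 at 12 h (adjusted p = 2.38e-08), kept under all 18 alternatives. Of the 17 tested inhibitors and regulators, 3 were higher at 3 h, 8 at 6 h, and 8 higher and 1 lower at 12 h. The higher calls are 17.6%, 47.1% and 47.1% of this list, beside 8.55%, 16.8% and 20.9% of all genes. Tnip2, whose product binds A20, changed by 1.26, 1.55 and 1.59 and was called at each time. Xiap, a relative of Birc2 that restrains caspases, named after its value was seen, was called lower at 12 h (-0.45, adjusted p = 0.013), though its change was 0.03 when its probe sets were averaged, and the call was lost without 0 h array 1, 0 h array 2 or 12 h array 1 (adjusted p = 0.0509, 0.0918 and 0.0874).

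Upstream of the factor, 7 genes of kinases and of partner proteins of kinases (Ikbkg, Tab1 and Tab2) were tested. Of these, 2 were higher at 3 h (Map3k14 and Tab1) and 3 each at 6 and 12 h (with Tab2). Of the kinases themselves, only Map3k14 was called. The higher calls are 28.6%, 42.9% and 42.9% of the 7 genes tested, beside 8.55%, 16.8% and 20.9% of all genes. The kinase NIK (Map3k14) gave 124.5 and 128 at 0 h, 369.5 and 480.5 at 3 h, 412.1 and 463.3 at 6 h, and 260.6 and 262.5 at 12 h. The 3 h and 6 h arrays overlapped, and those of 12 h lay between them and 0 h. Its change was 1.68 ± 0.18 at 3 h, 1.73 ± 0.18 at 6 h and 1.01 ± 0.18 at 12 h (limma, adjusted p = 3.12e-05, 1.41e-05 and 0.000563). Of 12 receptors and adaptors tested, 1 was higher at 3 h, 2 at 6 h, and 2 higher and 1 lower at 12 h. The higher calls are 8.33%, 16.7% and 16.7% of the 12 tested, beside 8.55%, 16.8% and 20.9% of all genes. Traf2, the adaptor that brings the Birc2 and Birc3 products to tumour necrosis factor receptors, changed by 0.95, 1.09 and 0.84 and was called at each time. The receptor gene Tnfrsf1b, also named after its value was seen, was called lower at 12 h (-0.94, adjusted p = 0.00973), a call lost without 0 h array 2 (-0.79, adjusted p = 0.0938), without 12 h array 1 (-0.59, adjusted p = 0.111) and with its probe sets averaged (-0.48, adjusted p = 0.0714).

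Of 34 other listed target genes, 17 were tested. Of these, 5 were higher at 3 h, 6 higher and 1 lower at 6 h, and 7 higher and 2 lower at 12 h. The higher calls are 29.4%, 35.3% and 41.2% of those tested, beside 8.55%, 16.8% and 20.9% of all genes. The chemokine gene Cxcl10 had signals of 81.8 and 126.3 at 0 h, 190.7 and 109.5 at 3 h, 448.2 and 532.2 at 6 h, and 2028.7 and 2168.1 at 12 h. Its 3 h arrays overlapped those of 0 h, the 6 h arrays lay above both, and the 12 h arrays were the highest. Its change was 0.48 ± 0.24 at 3 h (limma, adjusted p = 0.234), 2.18 ± 0.24 at 6 h (adjusted p = 2.88e-05) and 4.26 ± 0.24 at 12 h (adjusted p = 4.41e-08). The chemokine genes Ccl7 (2.40, 3.46 and 2.81) and Ccl2 (1.05, 1.53 and 0.80) were called at all 3 times, with the largest change at 6 h. Gadd45b, a stress-response gene (1.70, 2.30 and 2.02), the cytokine gene Lif (1.84, 1.69 and 1.15) and the transcription factor gene Irf1 (1.07, 1.34 and 0.97) were also called at all 3 times. The target genes called lower, chosen after their values were seen, were Cd44 at 6 and 12 h (-0.60 and -0.95) and Cflar, an inhibitor of caspase-8 activation, at 12 h (-0.52, adjusted p = 0.0352). The Cflar call was lost when any 1 of the 0 h or 12 h arrays was left out (adjusted p = 0.0545 to 0.21) and with no filter (0.0755).

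**Figure D4:**
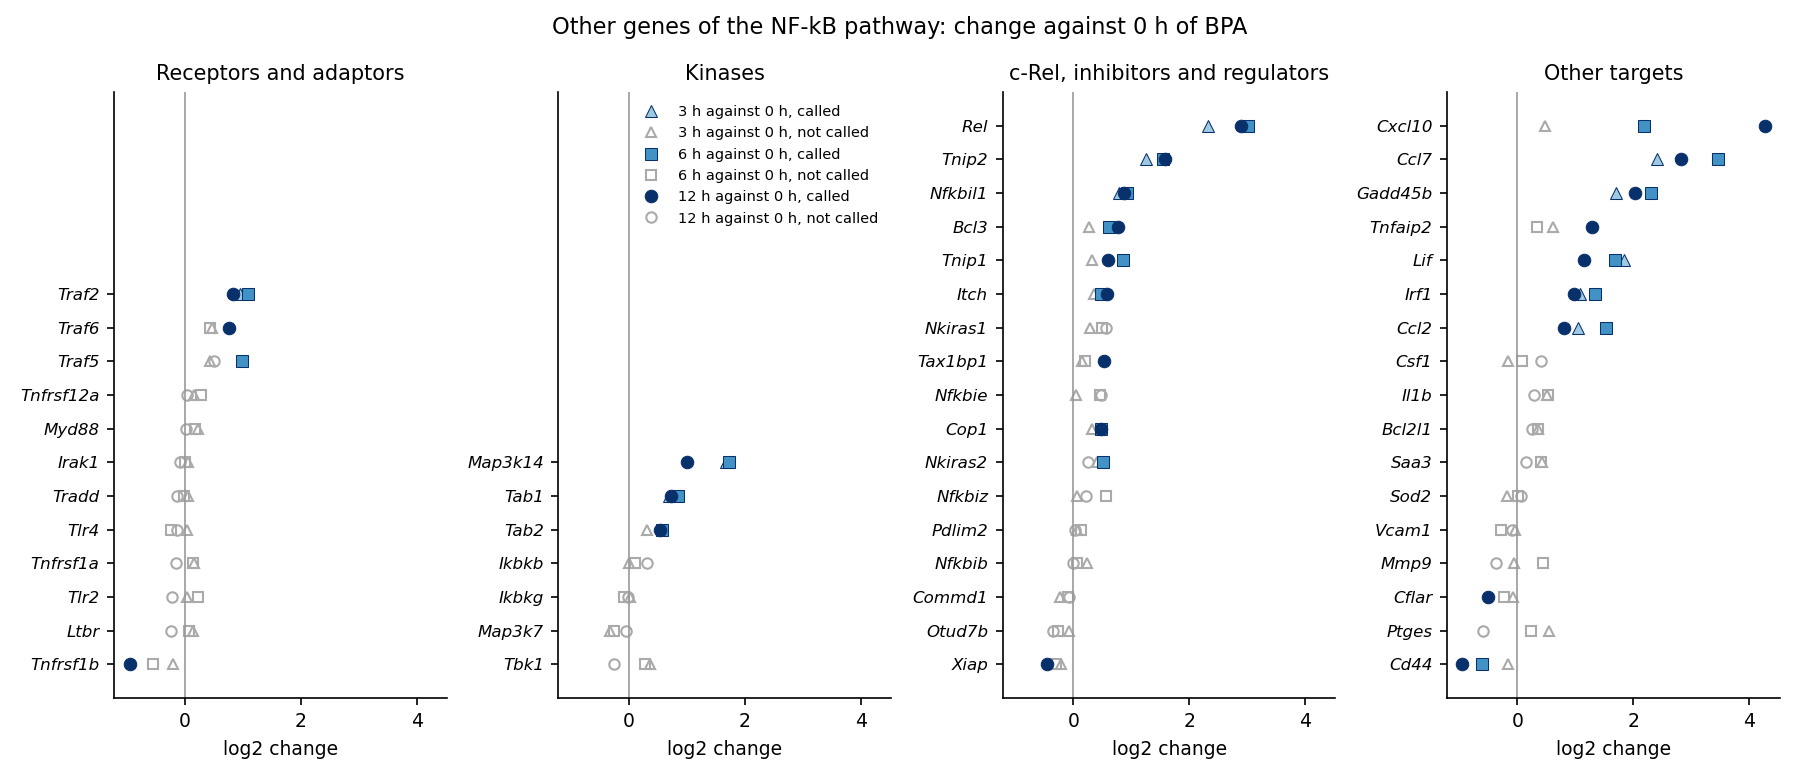
Log2 change against 0 h at 3, 6 and 12 h of each tested gene in the 4 pathway lists, with called values as filled symbols. The largest changes are 3.01 for Rel at 6 h, 3.46 for Ccl7 at 6 h and 4.26 for Cxcl10 at 12 h.

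The identity of the cells was checked with marker genes. Of 17 Sertoli markers, 15 were on the array and 10 passed the filter, among them Clu, Kitl, Gata4, Nr5a1 and Tjp1; the defining markers Amh, Fshr, Dhh, Cldn11 and Gdnf did not pass it. Of 10 macrophage and leukocyte markers, 4 passed and limma called 0 at any time. At an unadjusted p under 0.05 the count was also 0, with no share of all genes given. Ptprc stayed between 4.2 and 27.6. The summed signal of these 10 was 774.7 to 817.3 at 0 h, 822.7 to 911.1 at 3 h, 777.2 to 851.4 at 6 h and 791.4 to 835.7 at 12 h. At 3 h this sum lay above the 0 h range, the direction of the 8 genes, and at 6 and 12 h it overlapped that range. The sum of the Sertoli markers was 12440.1 to 12711.2 at 0 h, 11679.3 to 12472.2 at 3 h, 10485.9 to 10584.1 at 6 h and 8535.4 to 9504.6 at 12 h. That of 7 peritubular and fibroblast markers, 5 of which passed, was 9692.3 to 9702.7 at 0 h, 7394.6 to 7579.1 at 3 h, 5708.2 to 6211 at 6 h and 4518.2 to 5330.9 at 12 h. Both sums were lower at 6 and 12 h than at 0 h, and each rests largely on 1 gene: Clu averaged 7650.5 and Dcn 8431.75 at 0 h. Single Sertoli markers went both ways. Of the 10 tested, 1 was called higher at 3 h, and 3 were called higher and 2 lower at both 6 and 12 h. Sox9 was higher at 3, 6 and 12 h (1.83, 1.67 and 1.55) and Gata4 (0.45 and 0.50) and Tjp1 (0.42 and 0.41) at 6 and 12 h, while Clu (-0.69 and -1.17) and Inhbb (-0.61 and -0.99) were lower at 6 and 12 h. Of the 5 peritubular and fibroblast markers, 0 were called higher; Dcn was lower at 3, 6 and 12 h (-0.49, -0.73 and -0.98) and Col1a1 at 6 and 12 h (-0.79 and -1.54). Of the 4 Leydig cell markers on the array 1 passed the filter, Star, which was called lower at 6 h alone (-0.57). The sum of the 4 was 470 to 470.5 at 0 h, 369 to 382.1 at 3 h, 345.4 to 386.3 at 6 h and 470.2 to 551.7 at 12 h. Of the 8 germ cell markers 1 passed, and it was called at no time. Their sum was 182.3 to 205.2 at 0 h, 231.9 to 295.3 at 3 h, 260.4 to 268.5 at 6 h and 190.4 to 256.3 at 12 h, so that it lay above the 0 h range at 3 and 6 h, the direction of the 8 genes. In both the macrophage and the germ cell list most markers did not pass the filter. The median signals of the arrays were 150.85 and 155.1 at 0 h and 165.6 and 170.05 at 3 h. They were 164.8 and 166.6 at 6 h and 152.5 and 155.45 at 12 h. Whether the marker sums follow these medians was not tested. The part of these markers in the changes of the 8 genes was not tested.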

How the data were processed

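RNA of TTE3 cells was measured on 8 1-colour Affymetrix arrays, 2 at each of 4 times of BPA. The authors deposited 1 linear intensity (signal) for every probe set of an array. How the probes were summarised, and with which software, is not given in the sources used here. The values show that the authors had scaled each array to the same mean without the top and bottom 2% of probe sets. Such scaling hides a general rise or fall of RNA. No depth exists for arrays; their number limits the precision.

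Signals became log2(signal + 7.9), with the 10th percentile of the values as offset. Platform symbols were updated to RefSeq. For each of 12393 genes the probe set of highest mean was used; genes above the 30th percentile of mean log2 signal were tested (8675; 3718 removed). limma 3.58.1 in R 4.3.3 (lmFit, eBayes with an intensity trend; 4 residual and 9.00 prior degrees of freedom) gave two-sided tests over all 8 arrays, with Benjamini-Hochberg adjustment. The same model was fitted to all probe sets that are no controls. The model was tested on simulated data. The genes described and the lists around them were chosen with earlier results of these data known. Named genes were the 9 pathway genes whatever their result, and of each list up to 6 genes called with a change of 2-fold or more; for likeness, the 3 genes of highest r were computed and the first named. Alternatives were normalization, scaling, offset, filter, variance model, samples in the fit, replicate block, probe set choice and leaving out each array.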

Additional observations from a re-analysis of the deposited data

How the results depend on the processing

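Of 864 changes recomputed (the 8 genes in 6 comparisons under 18 alternatives), 819 kept their side of the threshold, of which 808 kept their direction and 11, uncalled and none of them against 0 h, changed it. Another 34 kept the direction and lost the call, 11 gained a call and 0 changed direction with a call. The cause of the lost and gained calls was not tested. The count of the 8 genes called at 3 h against 0 h was 5, and 3 without the intensity trend; at 6 h against 3 h it was 1, and 0 without the trend. Leaving out 1 array gave 2 to 5 genes at 3 h against 0 h, 6 to 7 at 6 h against 0 h, 6 to 8 at 12 h against 0 h, 0 to 1 at 6 h against 3 h, 0 to 1 at 12 h against 6 h and 1 to 6 at 12 h against 3 h, and 3 to 7 probe sets at 3 h. Over all genes, 1048 were called at 3 h against 0 h, 611 without the trend and 453 to 1280 with 1 array left out. At 6 h against 0 h 2299 were called, and 1377 to 2335 with 1 array left out. At 6 h against 3 h 97 were called, 56 with no filter, 6 without the trend, 61 with only the 2 groups compared, 226 with the replicate block and 30 to 129 with 1 array left out. At 12 h against 6 h 414 were called, 274 with no filter, 114 without the trend, 173 with only the 2 groups compared, 703 with the replicate block and 154 to 428 with 1 array left out. At 12 h against 3 h 1901 were called, and 1008 to 2151 with 1 array left out. Scaling to the same median put the median log2 change of all genes at -0.07 at 3 h and -0.04 at 6 h against 0 h (0.06 and 0.07 as reported), at 0.08 at 12 h against 6 h (-0.02) and at 0.11 at 12 h against 3 h (-0.01). It turned the split of higher and lower calls over all genes to 464 and 643 at 3 h (742 and 306 as reported), 1059 and 1188 at 6 h (1455 and 844), 184 and 200 at 12 h against 6 h (80 and 334) and 1414 and 770 at 12 h against 3 h (826 and 1075). The 8 genes kept their direction against 0 h there. Averaging all probe sets of a gene turned the log2 change of Xiap at 12 h to 0.026 (adjusted p = 0.939). Without the trend Nfkbia at 3 h, Birc2 at 3 h and Rela at 12 h lost their calls (adjusted p = 0.145, 0.0736 and 0.0596).

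The replicate numbers of the titles share only a number: deviations of same-numbered arrays correlated between -0.01 and 0.12 over 6 pairs of times. With the replicate block, 5, 6 and 8 of the 8 genes were called at 3, 6 and 12 h against 0 h, as without it. At 12 h against 3 h, 6 of the 8 were called with the block (5 higher, 1 lower) and 4 without it. Over all genes that comparison called 2252 with the block (1010 higher, 1242 lower) and 1901 without it (826 higher, 1075 lower).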
